A study of Homo sapiens with 10 samples.

Results

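The late change common to a pair of iron-limiting agents was examined in NK-92, a human line established from a lymphoma of natural killer (NK) cells. The 4 libraries taken 24 h after an agent was added were set against the 4 taken at 6 h, which makes 8 of the 10 libraries measured. At each time, 2 libraries came from cells given 500 µM deferoxamine (DFO), an iron chelator, and 2 from cells given 10 µg/mL PPMX-T003 (T003), an antibody to transferrin receptor 1. The remaining 2 libraries came from untreated cells at 0 h and are quoted as reference levels. The libraries were chosen by treatment and time as labelled, not by any measured value. All groups are the same line in the same medium with human serum, and the labels name no genetic change in it. Untreated cells were analysed at 0 h only, so a longer time with an agent and a longer time in culture cannot be told apart in any result below. Nothing in the labels says that the 2 libraries of a group came from separate cultures, so each p-value speaks of the spread between samples, and that spread may be technical.

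Most cells take up iron as transferrin bound to transferrin receptor 1, the product of TFRC, which carries it into endosomes and returns to the surface. When iron is short, iron regulatory proteins bind stem-loops in the 3′ untranslated region of the TFRC transcript and keep it from being degraded, while the same proteins hold back translation of the ferritin chains FTH1 and FTL. NK cells kill through perforin and granzymes and release interferon gamma and chemokines, and dividing NK cells need iron for DNA synthesis, respiration and haem.

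The 8 libraries held 107117892 to 135534058 estimated counts each, and levels are given as CPM, counts scaled to library size with TMM factors. Over the 10224 genes whose mean log2 CPM was 2 or more, the 2 libraries of a group differed by an SD of 0.1497 to 0.207 in log2 CPM. Over the same genes, the first principal component of the 8 libraries held 41.3% of the variance. It separated the 24 h libraries (5.79 to 11.5) from the 6 h libraries (-11.5 to -7.71). The NK markers NCAM1, NCR1, KLRD1, KLRK1, NKG7, GNLY, PRF1, GZMB, TBX21, EOMES and TYROBP were all at or above 1 CPM, with a summed level of 2178 to 2281 CPM at 6 h and 2270 to 2403 CPM at 24 h. Of the 10 T cell markers, CD3E, CD6 and CD28 reached 1 CPM and CD3G, CD8A and CD8B were at 0, with sums of 521 to 542 CPM at 6 h and 575 to 599.7 CPM at 24 h. The B cell markers summed to 1.88 to 2.51 CPM at 6 h and 0.414 to 0.9997 CPM at 24 h, MS4A1, CD79B and CD22 being at 0. The 9 myeloid markers summed to 5.32 to 8.21 CPM at 6 h and 6.41 to 7.52 CPM at 24 h, CD163 and S100A8 being at 0. Markers of red cells and platelets, and of epithelial cells and fibroblasts, stayed under 1 CPM in sum. The part of these marker levels in the results below was not tested.

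Between 6 h and 24 h the cells raised the iron uptake receptor, interferon gamma and the chemokines CCL3 and CCL4, and lowered a set of receptors and signalling regulators that included EPHA1, IL9R, CCR7, SKI and SKIL. In smaller steps, 28 of 36 ribosome biogenesis genes and 8 of 13 genes of fatty acid synthesis rose, while 14 of 21 genes of the unfolded protein response and 20 of 40 mitotic genes fell. In an edgeR quasi-likelihood test with time and agent as terms, 3551 of 19802 tested genes passed an adjusted p of 0.05 (Benjamini-Hochberg), which is 17.9%. Of these, 1972 (9.96% of tested genes) were higher at 24 h and 1579 (7.97%) were lower. These genes are said below to have risen, fallen or changed. Most changes were small: the median size was 0.17 on the log2 scale, and at least 2-fold changes were found for 23 genes that rose and 106 that fell. The median change of all tested genes was -0.00081. For 4009 genes (20.2%) the 4 libraries at 24 h did not overlap the 4 at 6 h, those at 24 h being above for 10.3% of tested genes and below for 9.97%.

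The change was then tested within each agent, in comparisons that share no library. From 6 h to 24 h, 1854 genes (9.36%) changed with DFO and 2537 (12.8%) with T003. A total of 1245 genes (6.29%) changed the same way with both, 731 (3.69%) upward and 514 (2.60%) downward, which is 67.2% of those called with DFO and 49.1% of those called with T003. ARHGAP19-SLIT1, a read-through gene named here after its values were seen, was the only gene called within both agents that changed in opposite directions. Over the 10224 genes whose mean log2 CPM was 2 or more, the changes with DFO and with T003 had a Pearson correlation of 0.64 and a Spearman correlation of 0.65, and 74.7% had the same sign. Over all 19802 tested genes, those of low level included, the Pearson correlation was 0.12. These values are across genes of the same 8 libraries, which are not independent, and carry no test. A test of the difference between agents (the interaction of agent and time) called 3 genes, among them HMGCS1 and HSPA5, 0.0151% of those tested, while 1752 genes had an unadjusted p under 0.05. The number of calls within an agent depended on single libraries: without DFO 6 h replicate 1 the DFO count was 930 and the shared count 769, and without T003 6 h replicate 1 the T003 count was 1177 and the shared count 722.

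**Figure D1:**
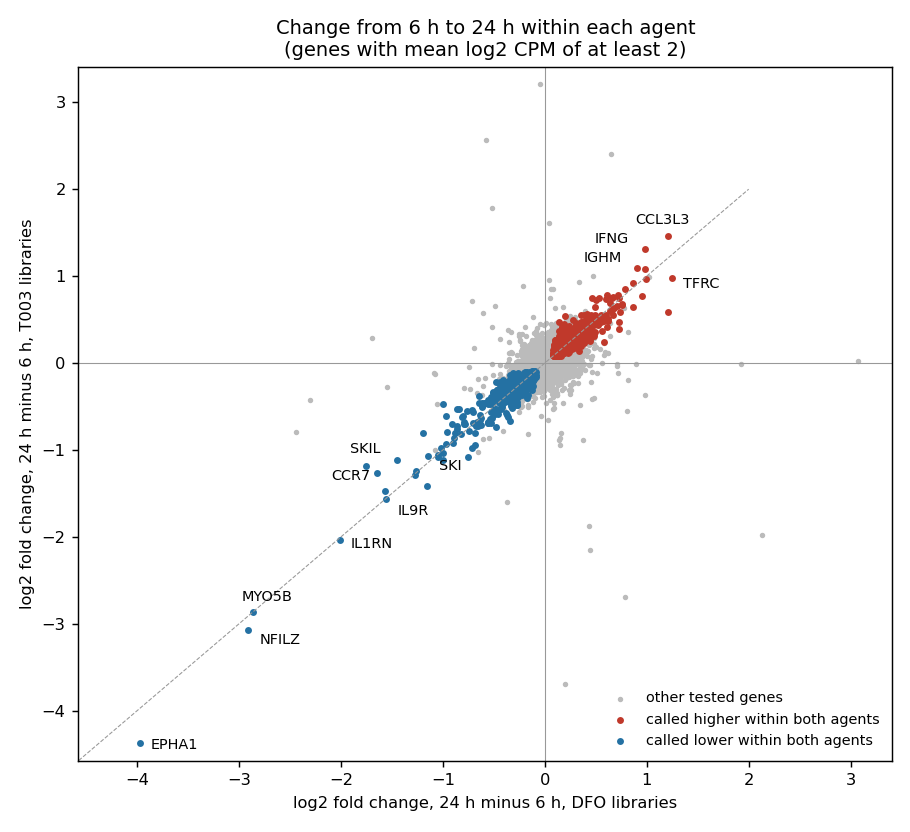
Log2 fold change from 6 h to 24 h with DFO (horizontal) and with T003 (vertical) for the 10224 genes whose mean log2 CPM was 2 or more. Red and blue points are genes called higher or lower within both agents, grey points are other genes, and the dashed line marks equal change. Red and blue points had to be called with the same sign within both agents, so their like direction was set by the choice. They run from EPHA1 at the lower left to TFRC, IFNG and CCL3L3 at the upper right.

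TFRC (chr3:196049284-196082090, hg38, minus strand) rose 2.17-fold. Its transcript carries the stem-loops that iron regulatory proteins bind. Its 3′ untranslated region was searched for the 6-base loop CAGTGN on a fully paired stem, with an unpaired C on the 5′ side and further pairs beyond it. An element with another loop or a mismatched stem would be missed, so the elements given may not be all. The 4 found are given below from the GENCODE v44 transcript on GRCh38, written 5′ to 3′ with the loop in capitals.
TFRC element 1 (chr3:196050979-196051007, minus strand): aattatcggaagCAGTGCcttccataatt
TFRC element 2 (chr3:196050575-196050603, minus strand): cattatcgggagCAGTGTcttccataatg
TFRC element 3 (chr3:196050511-196050537, minus strand): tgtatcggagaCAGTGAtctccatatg
TFRC element 4 (chr3:196050463-196050491, minus strand): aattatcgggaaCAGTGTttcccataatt
The letters CAGTG were set by the search, and the last base of the loop, which it left free, varies. TFRC stood at 177 and 166 CPM in the untreated libraries, 359 and 346 CPM in the DFO libraries and 436 and 420.0 in the T003 libraries at 6 h, and 835 and 836 with DFO and 841 and 844 with T003 at 24 h (log2 fold change 1.11, SE 0.045, adjusted p = 5.74e-08). No library at 24 h overlapped one at 6 h; at 6 h both T003 libraries were above both DFO libraries, and at 24 h all 4 lay between 835 and 844 CPM. The rise was 1.25 with DFO (SE 0.028, adjusted p = 2.08e-08) and 0.98 with T003 (SE 0.027, adjusted p = 9.05e-08) on the log2 scale, and the difference between agents did not pass the test (interaction -0.26, SE 0.038, adjusted p = 0.134).

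Of 20 tested genes for uptake, storage and sensing of iron (median log2 change 0.054), 4 rose and 1 fell with both agents. The shares of all genes that did so were 3.69% and 2.60%. In the test over both agents 7 rose (35%) and 5 fell (25%), against 9.96% and 7.97% of all genes. The number that fell was 3 when any one of DFO 6 h replicate 1, T003 6 h replicate 2, DFO 24 h replicate 1 or either T003 24 h library was left out. SLC25A37, the mitoferrin that carries iron into mitochondria, rose from 52.5 ± 0.729 CPM at 6 h to 66.6 ± 1.52 at 24 h (SD, n = 4; log2 fold change 0.35, SE 0.023, adjusted p = 1.92e-06). SLC39A14 and SLC39A8, transporters that also admit iron, rose by 0.14 and 0.15 on the log2 scale. The ferritin chains moved apart: FTH1 fell, with 282 to 324 CPM in the 4 libraries at 6 h and 267 to 279 in the 4 at 24 h (log2 fold change -0.16, SE 0.030, adjusted p = 0.00378), and FTL rose, with 421 to 441 CPM in the 4 libraries at 6 h and 441 to 475 in the 4 at 24 h (log2 fold change 0.096, SE 0.024, adjusted p = 0.0183). FTH1 shares its position with BEST1 and LOC399900, whose reads cannot be told apart from its own, and the ranges of both ferritin genes touch or lie close together. FBXL5, the subunit of the ubiquitin ligase that removes iron regulatory proteins, fell by 0.17 on the log2 scale, and NCOA4, the cargo receptor that brings ferritin to lysosomes, fell by 0.095. Among 26 genes of haem and iron-sulfur cluster synthesis, 5 rose and 1 fell; the 5 became 2 with GC and length trends removed, and 3 without either DFO 6 h library, T003 6 h replicate 2 or DFO 24 h replicate 2. ALAS1, the first enzyme of haem synthesis, was at 53.5 and 52.7 CPM in the DFO libraries and 53.97 and 54.1 in the T003 libraries at 6 h, and 67.4 and 68.5 with DFO and 74.97 and 82.4 with T003 at 24 h, and all 24 h libraries lay above all 6 h libraries (log2 fold change 0.45, SE 0.041, adjusted p = 2.73e-05). FECH, which inserts iron into haem, fell by 0.15.

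Several of the largest rises were in secreted effectors of NK cells. Of 15 tested cytokines and chemokines, 11 rose (73.3%) and 2 fell (13.3%), against 9.96% and 7.97% of all genes. Their median log2 change was 0.31, against -0.00081 for all genes, and 8 rose with both agents, against 3.69% of all genes. IFNG, interferon gamma (chr12:68154768-68159740, minus strand), was at 6.62 and 6.32 CPM in the DFO libraries and 6.41 and 6.302 in the T003 libraries at 6 h, and 12.3 and 13.3 with DFO and 16.2 and 15.3 with T003 at 24 h (log2 fold change 1.15, SE 0.075, adjusted p = 2.10e-06). All 24 h libraries were above all 6 h libraries, and the untreated libraries, at 8.33 and 6.04 CPM, lay near the 6 h level. CCL3, a chemokine for monocytes and lymphocytes, rose 1.998-fold from a high level, with 783 and 794 CPM in the DFO libraries and 832 and 843 in the T003 libraries at 6 h, and 1415 and 1531 with DFO and 1785 and 1772 with T003 at 24 h (log2 fold change 0.999, SE 0.037, adjusted p = 3.92e-08). It overlaps the antisense gene CCL3-AS1, and no source used here says whether counting took strand into account. CCL3L3, a near copy of CCL3 on chromosome 17, rose 2.52-fold, but reads of the copies may have been split between them. CCL4, a related chemokine, was at 109 to 118 CPM in the 4 libraries at 6 h and 192 to 221 in the 4 at 24 h, a 1.86-fold rise (SE 0.026 on the log2 scale, adjusted p = 6.37e-09). Its untreated libraries differed, at 147 and 93.1 CPM, so the level before treatment is poorly fixed. The lymphotactins XCL1 and XCL2 rose 1.49-fold and 1.39-fold, and IL10 rose from 5.64 ± 0.768 CPM at 6 h to 7.73 ± 0.474 at 24 h (SD, n = 4). TNFSF14, also called LIGHT, and FLT3LG fell by 0.19 and 0.18 on the log2 scale. TNF was at a low level, at 0.377 ± 0.144 CPM at 6 h and 0.452 ± 0.163 at 24 h, and did not pass the test.

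**Figure D2:**
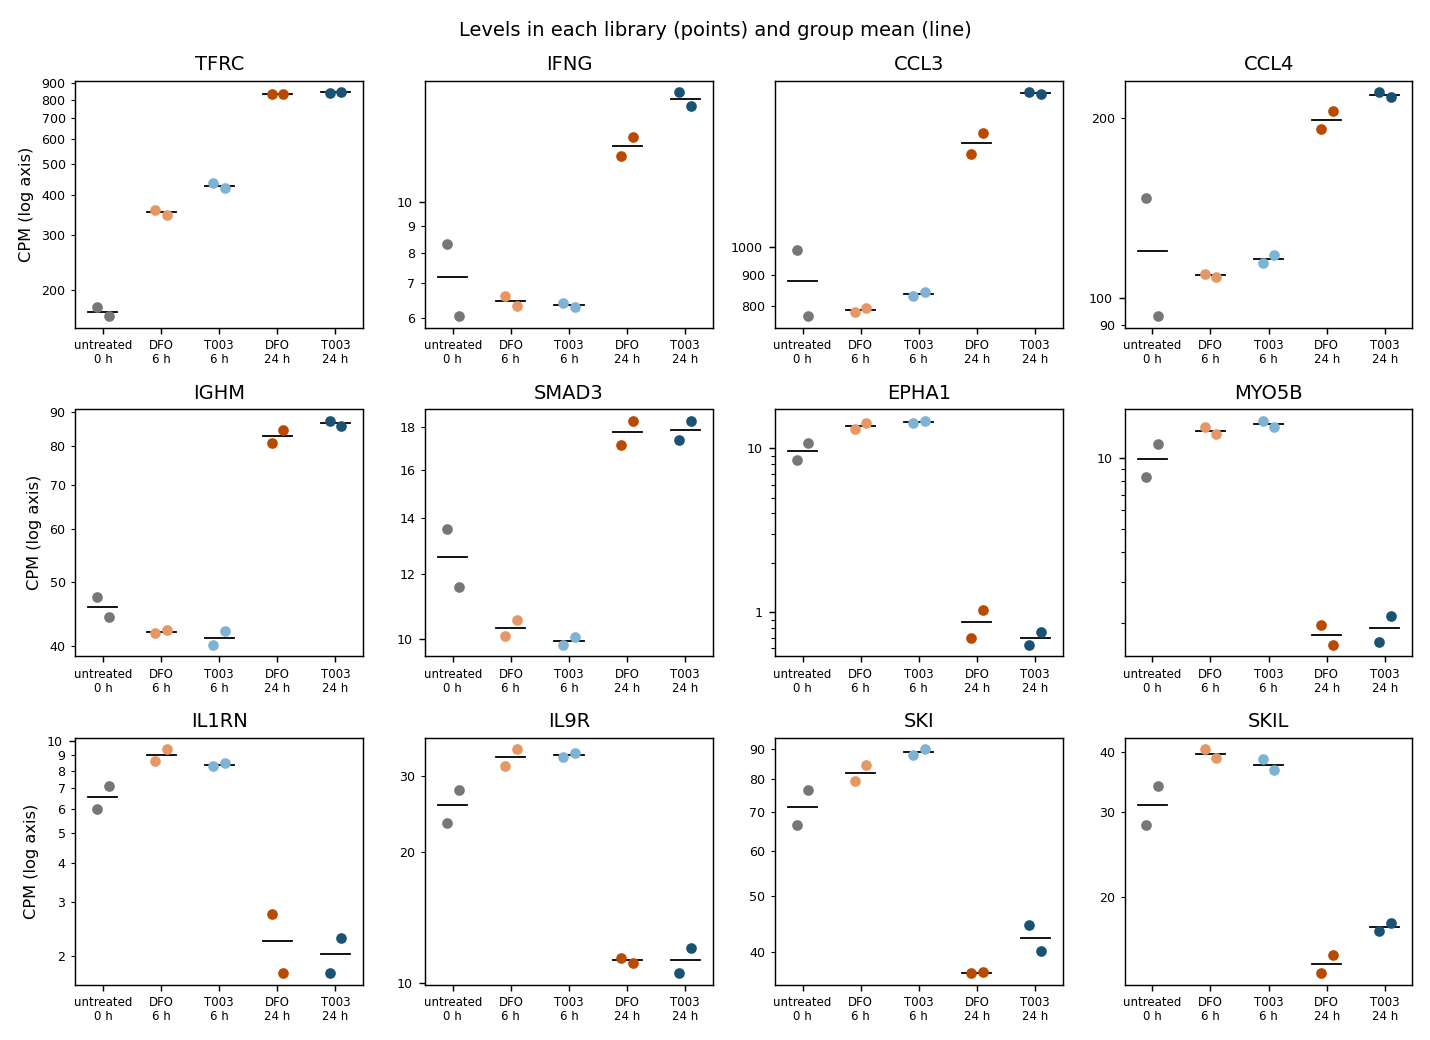
CPM (log axis) of 12 genes in each of the 10 libraries, by group; points are libraries and lines are group means over 2 libraries. TFRC, IFNG, CCL3, CCL4, IGHM and SMAD3 stand higher in all 24 h libraries than in all 6 h libraries, and EPHA1, MYO5B, IL1RN, IL9R, SKI and SKIL stand lower.

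Other genes among the 15 largest rises, by the same limits as given for the falls below, had varied roles. IGHM, the immunoglobulin mu constant region gene on chromosome 14, was at 40.1 to 42.3 CPM in the 4 libraries at 6 h and 80.8 to 87.4 in the 4 at 24 h (log2 fold change 1.03, SE 0.030, adjusted p = 6.37e-09); it lies inside the annotated IGH locus. KIR3DX1, a gene related to the killer cell immunoglobulin-like receptors, was at 55.99 to 60.8 CPM in the 4 libraries at 6 h and 87.6 to 105 in the 4 at 24 h, and RBM38, an RNA-binding protein, at 214 to 241 CPM in the 4 libraries at 6 h and 352 to 408 in the 4 at 24 h. That none of these 3 overlapped between the times follows from the limits by which they were taken. RBM38 overlaps RBM38-AS1, which the counts may not separate from it. TERT, the catalytic subunit of telomerase, rose 1.65-fold from 9.29 ± 0.867 CPM at 6 h to 15.3 ± 0.909 at 24 h (SD, n = 4). PTPN6, the phosphatase SHP-1 that acts below inhibitory receptors, rose 1.69-fold, RIPOR2 1.68-fold and PITPNM2, a phosphatidylinositol transfer protein, 1.81-fold. GPR3, a receptor that raises cAMP, went from 3.56 ± 0.264 CPM at 6 h to 6.98 ± 0.732 at 24 h (SD, n = 4). The transcriptional repressor HIC1, which overlaps SMG6, rose by 1.21 with DFO and 0.59 with T003 on the log2 scale; that difference did not pass the interaction test (adjusted p = 0.223).

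The 15 largest falls given here and in the next paragraphs are those of genes whose mean log2 CPM was 2 or more, called within both agents and without overlap between the times. EPHA1, an ephrin receptor tyrosine kinase (chr7:143391129-143408856, minus strand), was at 13.1 and 14.3 CPM in the DFO libraries and 14.3 and 14.7 in the T003 libraries at 6 h, and 0.697 and 1.03 with DFO and 0.631 and 0.758 with T003 at 24 h, a 17.97-fold fall (log2 fold change -4.17, SE 0.13, adjusted p = 7.69e-09). Untreated libraries stood at 8.46 and 10.8 CPM, below the 6 h and far above the 24 h libraries. EPHA1 overlaps EPHA1-AS1, so its counts may include antisense reads. MYO5B, a myosin that moves recycling endosomes (chr18:49822789-50195147, minus strand), was at 12.6 to 14.4 CPM in the 4 libraries at 6 h and 1.62 to 2.15 in the 4 at 24 h (log2 fold change -2.86, SE 0.093, adjusted p = 9.23e-09). NFILZ, a basic leucine zipper gene related to NFIL3, fell 7.93-fold, and IL1RN, the interleukin-1 receptor antagonist, fell 4.07-fold. With DFO and T003 the changes on the log2 scale were -2.87 and -2.86 for MYO5B, and -2.01 and -2.04 for IL1RN. They were -3.97 and -4.37 for EPHA1, and -2.91 and -3.07 for NFILZ. The differences for EPHA1 and NFILZ did not pass the interaction test (adjusted p = 0.648 and 0.858). CSF1, the growth factor of macrophages, fell from a higher level, with 288 and 299 CPM in the DFO libraries and 298 and 318 in the T003 libraries at 6 h, and 145 and 148 with DFO and 141 and 142 with T003 at 24 h (log2 fold change -1.06, SE 0.029, adjusted p = 6.37e-09). QSOX1, an enzyme that forms disulfide bonds, was at 127 to 140.2 CPM in the 4 libraries at 6 h and 52.98 to 57.4 in the 4 at 24 h, and RAB3GAP1, a regulator of RAB GTPases, at 39.96 to 44.3 CPM in the 4 libraries at 6 h and 18.3 to 21.97 in the 4 at 24 h. DYNC2H1 (-1.46), KIAA0513 (-1.45) and the ubiquitin ligase ZNRF1 (-1.25) also fell, on the log2 scale. In the 12 genes plotted by library, the untreated level of all 6 that fell lay between the 24 h and the 6 h levels. Among the plotted genes that rose, the untreated means of IFNG, CCL3, CCL4, IGHM and SMAD3 also lay between those of the 2 times. The untreated mean of TFRC lay below both.

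Regulators of SMAD signalling, through which TGF-beta acts, were among the leading genes in both directions. SKI and SKIL, corepressors that silence SMAD complexes, fell: SKI was at 79.1 and 84.3 CPM in the DFO libraries and 88 and 90.01 in the T003 libraries at 6 h, and 36.7 and 36.9 with DFO and 44.5 and 40.2 with T003 at 24 h (log2 fold change -1.11, SE 0.036, adjusted p = 9.23e-09), and SKIL was at 36.7 to 40.6 CPM in the 4 libraries at 6 h and 13.8 to 17.6 in the 4 at 24 h (log2 fold change -1.28, SE 0.066, adjusted p = 3.38e-07). LDLRAD4, a membrane inhibitor of the pathway, fell 2.43-fold. SMAD3, the transducer that SKI and SKIL bind, rose from 10.1 ± 0.302 CPM at 6 h to 17.8 ± 0.6196 at 24 h (SD, n = 4; log2 fold change 0.82, SE 0.049, adjusted p = 1.14e-06). These 4 genes were taken by limits that required no overlap between the times, so their lack of overlap was set by the choice. The receptors TGFBR2 and TGFBR3 rose by 0.32 and 0.39, the ligand TGFB1 rose by 0.24, and the ubiquitin ligase SMURF2 fell by 0.30 on the log2 scale. A list of the pathway was drawn up only after these genes had been seen, so its count has no test. Of 26 tested members 5 rose (19.2%) and 6 fell (23.1%), against 9.96% and 7.97% of all tested genes. The median was -0.054, and SMAD7 (-0.085) and SMAD4 (-0.015) did not pass.

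Receptors and transcription factors of NK cells moved in both directions. Of the NK receptors and adaptors 29.0% rose and 19.4% fell, against 9.96% and 7.97% of all tested genes. Of 31 NK receptors and adaptors, 9 rose and 6 fell (median log2 change 0.018); 3 fell when either DFO 24 h library, T003 6 h replicate 2 or DFO 6 h replicate 1 was left out. LILRB1, an inhibitory receptor for MHC class I, was at 56.9 to 58.2 CPM in the 4 libraries at 6 h and 79.4 to 81.6 in the 4 at 24 h (log2 fold change 0.49, SE 0.020, adjusted p = 5.77e-08). CD160, an activating receptor, rose by 0.35 and KLRD1, the CD94 chain that pairs with NKG2 receptors, fell by 0.39 on the log2 scale. HLA-E, the ligand that CD94 with NKG2 chains recognises, rose from 256 ± 6.32 CPM at 6 h to 314 ± 16.4 at 24 h (SD, n = 4), while HLA-B (-0.031) and HLA-C (-0.0057) did not pass the test; reads of HLA genes may be split among near copies. Of 21 lineage transcription factors, 8 rose (38.1%) and 5 fell (23.8%). ZNF683, or Hobit, a factor of tissue-resident lymphocytes, fell 7.08-fold, with 4.38 and 4.22 CPM in the DFO libraries and 3.998 and 4.51 in the T003 libraries at 6 h, and 0.665 and 0.505 with DFO and 0.754 and 0.487 with T003 at 24 h (log2 fold change -2.82, SE 0.14, adjusted p = 2.92e-07). Its paralogue PRDM1, or Blimp-1, rose, with 57.7 to 59.3 CPM in the 4 libraries at 6 h and 76.7 to 86.4 in the 4 at 24 h (log2 fold change 0.47, SE 0.029, adjusted p = 1.45e-06). The inhibitors of E proteins ID2 and ID3 rose by 0.50 and 0.71. TBX21, or T-bet, rose by 0.21, whereas EOMES fell by 0.24, RUNX3 by 0.21 and IKZF3 by 0.20 on the log2 scale.

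Cytokine receptors and homing receptors were also split. In the list of IL-2 family receptors, STAT5 and its feedback genes, 8 of 26 rose (30.8%) and 5 fell (19.2%). Over all tested genes the shares were 9.96% and 7.97%. IL9R, the interleukin-9 receptor, was at 31.6 and 34.6 CPM in the DFO libraries and 33.2 and 33.9 in the T003 libraries at 6 h, and 11.4 and 11.2 with DFO and 10.5 and 12.02 with T003 at 24 h (log2 fold change -1.56, SE 0.050, adjusted p = 9.23e-09). IL2RB, the shared beta chain of the IL-2 and IL-15 receptors, rose from 989 ± 33.6 CPM at 6 h to 1243 ± 65.2 at 24 h and IL2RA from 16.4 ± 0.913 CPM at 6 h to 21.4 ± 2.34 at 24 h (SD, n = 4). The STAT5 target genes PIM1 and CISH fell by 0.36 and 0.23, while BCL2 rose by 0.26 on the log2 scale. Of 19 receptors of lymphocyte traffic, 4 rose and 4 fell (21.1% each). CCR7, which guides lymphocytes to lymph nodes, was at 12.5 to 13.7 CPM in the 4 libraries at 6 h and 4.11 to 5.297 in the 4 at 24 h (log2 fold change -1.52, SE 0.076, adjusted p = 2.92e-07), and CXCR3 and CXCR4 fell by 0.28 and 0.21. S1PR1, the receptor for exit from lymph nodes, rose by 0.48 and the integrin chain ITGAL by 0.32. Of 20 cytotoxic effectors, 7 rose (35%) and 4 fell (20%), with a median log2 change of 0.027. PRF1, perforin, rose from 239 ± 6.28 CPM at 6 h to 291 ± 17.02 at 24 h and GZMA, granzyme A, from 209 ± 0.844 CPM at 6 h to 238 ± 2.77 at 24 h (SD, n = 4). The change of GZMB, granzyme B, was 0.10 with DFO (adjusted p = 0.132) and 0.40 with T003 (adjusted p = 1.12e-04); only the second passed, and the difference between them did not (interaction adjusted p = 0.211). RAB27A, which docks lytic granules, and FASLG fell by 0.19 and 0.21.

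**Figure D3:**
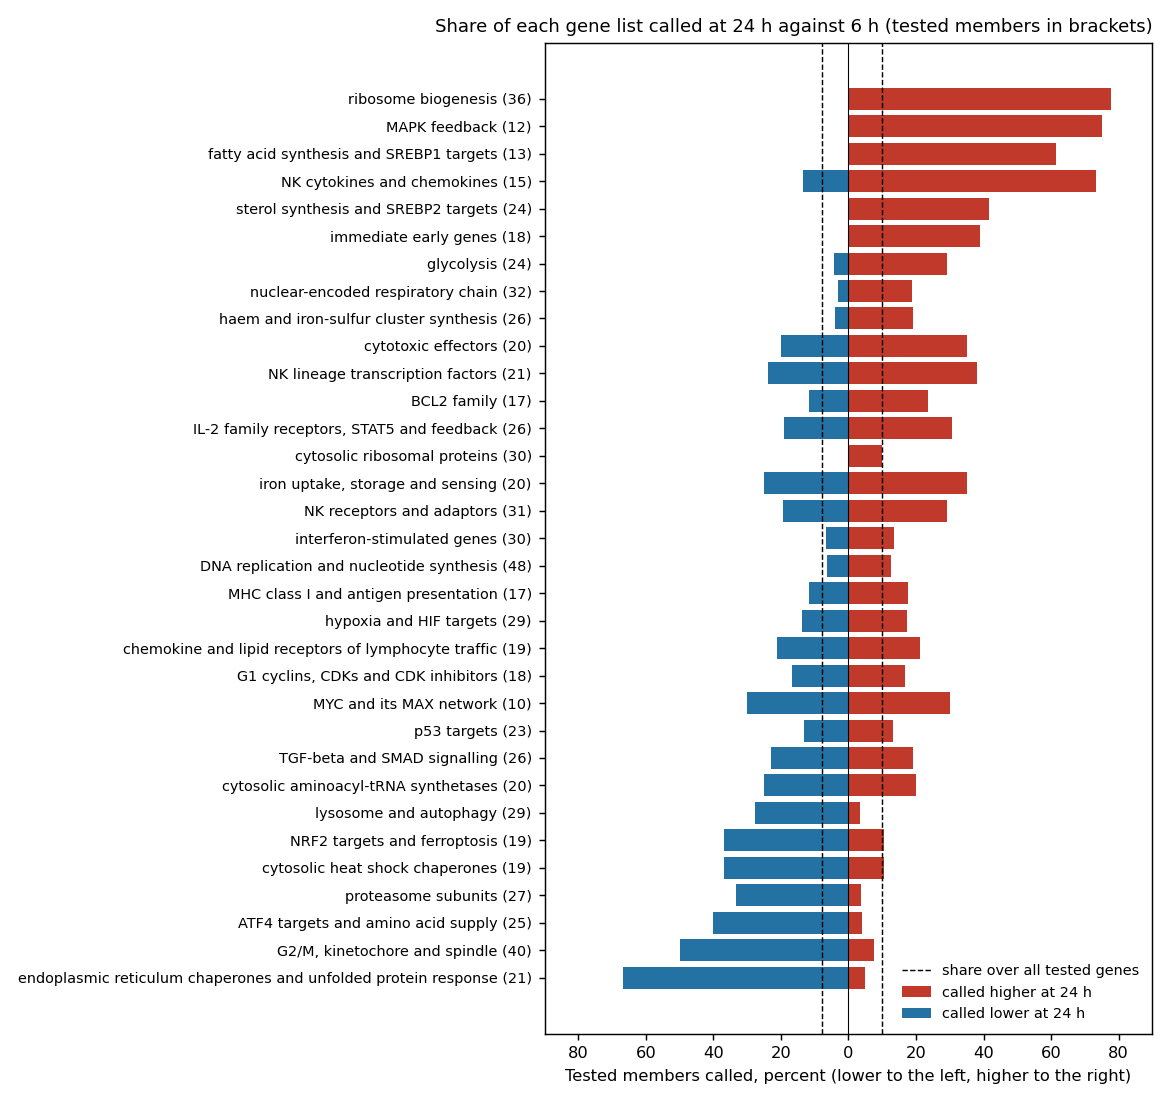
Share of the tested members of 33 gene lists called higher (red, to the right) or lower (blue, to the left) at 24 h against 6 h, with the number tested in brackets. The dashed lines mark the shares over all tested genes, 9.96% higher and 7.97% lower; ribosome biogenesis reaches 77.8% higher and endoplasmic reticulum chaperones 66.7% lower.

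Growth factor signalling through MAP kinases induces the genes that damp it. Of 12 feedback regulators of MAP kinases, 9 rose and none fell (75.0% against 9.96% of all genes). Their median log2 change was 0.30, and 6 rose with both agents, against 3.69% of all genes. The phosphatase DUSP6 was at 14.8 to 16.6 CPM in the 4 libraries at 6 h and 23.5 to 25.8 in the 4 at 24 h (log2 fold change 0.67, SE 0.048, adjusted p = 4.54e-06). PHLDA1 rose 1.56-fold, and DUSP5, which acts on ERK in the nucleus, rose from 218 ± 6.31 CPM at 6 h to 272 ± 27.9 at 24 h (SD, n = 4). Of 18 immediate early genes, 7 rose and none fell. JUNB went from 19.5 ± 1.51 CPM at 6 h to 28.5 ± 1.59 at 24 h (SD, n = 4), while EGR1, at 1.95 to 2.36 CPM in the 4 libraries at 6 h and 3.15 to 3.59 in the 4 at 24 h, and KLF2, at 1.19 to 2.03 CPM in the 4 libraries at 6 h and 2.66 to 4.01 in the 4 at 24 h, rose from low levels. FOS (0.40) and JUN (0.11) did not pass. JUND, which did not pass either (0.0021), went from a value near 0 to -0.13 when trends with GC content and length were removed.

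MYC (chr8:127735434-127742951), a driver of ribosome production, rose, with 504 and 523 CPM in the DFO libraries and 520.3 and 549 in the T003 libraries at 6 h, and 634 and 683 with DFO and 727 and 713 with T003 at 24 h (log2 fold change 0.40, SE 0.029, adjusted p = 4.64e-06). Both untreated libraries, at 579 and 535 CPM, lay below the 24 h libraries. In its partner network MXI1 rose by 0.67 and MXD4 and MXD1 fell by 0.51 and 0.42. Ribosome biogenesis had the highest share of rising genes of all lists: 28 of 36 rose (77.8%), none fell, and 18 rose with both agents against 3.69% of all genes. The steps were small, with a median log2 change of 0.12 and a highest of 0.30. NOP16 went from 117 ± 2.63 CPM at 6 h to 143 ± 2.38 at 24 h, BOP1 from 134 ± 3.35 CPM at 6 h to 159.9 ± 4.01 at 24 h and WDR3 from 221 ± 3.56 CPM at 6 h to 258 ± 3.87 at 24 h (SD, n = 4). All 24 h libraries of these 3 genes were above all 6 h libraries, as was the case for 10.3% of all tested genes. NPM1 (0.029) and NCL (0.046), abundant nucleolar proteins, did not pass. The E-box CACGTG, the letters that MYC and its partners bind, was present in 10 of the 30 members with a RefSeq promoter window. That is 33.3%, against 9.57% of the 12432 tested genes with one. Of these 10 members 9 rose, against 28 of 36 in the whole list, and a link to the E-box was not tested. Ribosomal protein genes themselves were near the background: 3 of 30 rose and none fell (10.0%).

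Genes of lipid synthesis rose, and the change of HMGCS1, an enzyme of the sterol pathway, differed between agents. Of 13 genes of fatty acid synthesis, 8 rose and none fell (61.5%), 5 of them with both agents; 5 rose when any one library other than T003 6 h replicate 2 was left out. FASN, fatty acid synthase, was at 642 to 707 CPM in the 4 libraries at 6 h and 744 to 876 in the 4 at 24 h (log2 fold change 0.25, SE 0.027, adjusted p = 9.78e-05), and SREBF1, the factor that drives these genes, rose from 9.89 ± 0.968 CPM at 6 h to 13.98 ± 0.622 at 24 h (SD, n = 4). SCD, the stearoyl desaturase, rose by 0.12 with DFO and 0.25 with T003 on the log2 scale. Of 24 genes of sterol synthesis and uptake, 4 rose with both agents, against 3.69% of all genes. In the test over both agents 10 rose and none fell (41.7%, against 9.96% of all genes). That number was 5 without T003 6 h replicate 1 or T003 24 h replicate 1, and 6 without the other replicate of either group. The median change of these 24 genes was 0.022 with DFO and 0.16 with T003, a difference that was not tested over the list.

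HMGCS1, which makes HMG-CoA for sterol synthesis (chr5:43287470-43313412, minus strand), was at 330.2 and 321 CPM in the DFO libraries and 330.0 and 325 in the T003 libraries at 6 h, and 301 and 311 with DFO and 417 and 426 with T003 at 24 h. Both T003 libraries at 24 h stood above all others, and both DFO libraries at 24 h stood below all 6 h libraries. The change was -0.087 with DFO (adjusted p = 0.0749) and 0.37 with T003 (adjusted p = 2.01e-05), and their difference was 0.46 (SE 0.038, adjusted p = 0.006399). DHCR7 and SQLE, later enzymes of the pathway, rose with both agents, by 0.17 and 0.14 with DFO and by 0.42 and 0.31 with T003. HSPA5, also called for a difference, is described with the chaperones. When DFO or T003 libraries were left out one at a time, the number of genes called for a difference ran from 0 (without T003 24 h replicate 2) to 7 (without T003 6 h replicate 2).

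**Figure D4:**
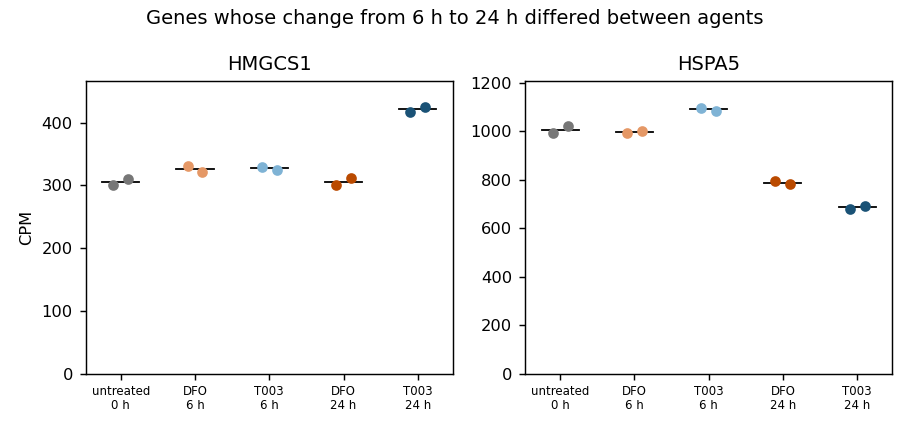
CPM of HMGCS1 and HSPA5, whose change from 6 h to 24 h differed between agents, in each library (points) with group means over 2 libraries (lines); axes start at 0. HMGCS1 is higher in the 2 T003 libraries at 24 h than in every other library, and HSPA5 is lower at 24 h with both agents and lowest with T003.

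Most of the tested endoplasmic reticulum chaperones and related genes fell. Of 21 tested members of the unfolded protein response, 14 fell and 1 rose (66.7% lower, against 7.97% of all genes; median log2 change -0.12), and 8 fell with both agents against 2.60% of all genes. The endoplasmic reticulum stress element, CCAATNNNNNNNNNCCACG searched on both strands, was present between 250 bases before and 50 after the start of 6 of the 20 members with a RefSeq promoter window (30.0%), and of 18 of the 12432 tested genes with one (0.145%). Those stretches are shown because the 6 genes share the element, with 10 bases on each side and the element in capitals. They are from RefSeq on GRCh38.p14, each read 5′ to 3′ on the strand of its gene; where the element lies on the other strand, its reverse complement is in capitals.
HSPA5 (chr9:125241381-125241419, minus strand): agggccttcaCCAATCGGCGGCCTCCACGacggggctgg
HSP90B1 (chr12:103930206-103930244, plus strand): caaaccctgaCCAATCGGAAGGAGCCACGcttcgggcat
HSP90B1 (chr12:103930311-103930349, plus strand): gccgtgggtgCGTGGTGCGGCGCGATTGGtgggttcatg
CALR (chr19:12938374-12938412, plus strand): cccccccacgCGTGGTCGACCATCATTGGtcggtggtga
CANX (chr5:179698768-179698806, plus strand): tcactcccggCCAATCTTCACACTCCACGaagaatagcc
CRELD2 (chr22:49918544-49918582, plus strand): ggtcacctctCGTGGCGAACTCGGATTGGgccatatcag
XBP1 (chr22:28800593-28800631, minus strand): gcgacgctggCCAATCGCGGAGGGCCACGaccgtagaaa
HSP90B1 has the element on each strand, and the letters CCAAT within it are also the NF-Y box. Of the 6 genes, HSPA5, HSP90B1, CALR, CANX and CRELD2 fell and XBP1 rose. In the whole list 14 of 21 fell, and whether the element goes with a fall was not tested. A match to letters is a description and not a binding site.

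HSPA5, or BiP, the main chaperone of the compartment, was at 995 and 1003 CPM in the DFO libraries and 1098 and 1084 in the T003 libraries at 6 h, and 795 and 783 with DFO and 680.0 and 693 with T003 at 24 h. It fell with DFO (-0.34, adjusted p = 1.00e-05) and further with T003 (-0.66, adjusted p = 1.76e-07), the difference being -0.32 (SE 0.030, adjusted p = 0.0103). HSP90B1, or GRP94, fell from 978 ± 28.5 CPM at 6 h to 808 ± 44.8 at 24 h and CALR, calreticulin, from 1164 ± 46.8 CPM at 6 h to 966 ± 46.9 at 24 h (SD, n = 4). CANX, calnexin, fell by 0.12, CRELD2 by 0.27, DNAJC3 by 0.31 and HERPUD1, a part of the degradation machinery, by 0.41 on the log2 scale. XBP1, the transcription factor of this response, was at 54.2 and 57.4 CPM in the DFO libraries and 61.7 and 60.9 in the T003 libraries at 6 h, and 68.7 and 72.9 with DFO and 63.5 and 63.6 with T003 at 24 h; it rose by 0.35 with DFO (adjusted p = 4.01e-04) but 0.058 with T003 did not pass (adjusted p = 0.4102), and neither did the difference (adjusted p = 0.211). The call of XBP1 over both agents was lost without DFO 6 h replicate 1, DFO 6 h replicate 2 or DFO 24 h replicate 1. The counts do not separate spliced from unspliced XBP1.

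Other protein quality genes fell too, in smaller numbers. Among cytosolic heat shock chaperones 7 of 19 fell (36.8%, against 7.97% of all tested genes) and 2 rose. HSPA8, the constitutive HSP70, fell from 5161 ± 124 CPM at 6 h to 4216 ± 303 at 24 h and DNAJB1 from 172 ± 4.78 CPM at 6 h to 134 ± 7.18 at 24 h (SD, n = 4). HSPA1A and HSPA1B are near copies and their counts are uncertain. Among proteasome subunits 9 of 27 fell and 1 rose, the lowest being PSMD1 (-0.20). Among genes of the lysosome and autophagy 8 of 29 fell and 1 rose, GABARAPL1 being at 33.4 to 36.6 CPM in the 4 libraries at 6 h and 22.9 to 26.6 in the 4 at 24 h (log2 fold change -0.51, SE 0.053, adjusted p = 7.15e-05).

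The cystine transporter had the deepest fall among genes of amino acid stress and of antioxidant defence. SLC7A11, which imports cystine for glutathione and is counted in both lists here, was at 81.7 and 78.4 CPM in the DFO libraries and 74.8 and 75.4 in the T003 libraries at 6 h, and 40.7 and 39.2 with DFO and 37.8 and 35.4 with T003 at 24 h (log2 fold change -1.02, SE 0.029, adjusted p = 6.37e-09). It fell to about the same level with each agent, and both untreated libraries, at 74.1 and 83.4 CPM, lay near the 6 h level. SLC7A11 overlaps SLC7A11-AS1. Of 25 ATF4 targets, 10 fell (40%, against 7.97% of all tested genes) and 1 rose, with a median of -0.076. CEBPB was at 53.2 to 71.8 CPM in the 4 libraries at 6 h and 31.4 to 35.2 in the 4 at 24 h (log2 fold change -0.92, SE 0.071, adjusted p = 7.83e-06), and DDIT3, or CHOP, fell from 13.4 ± 1.01 CPM at 6 h to 8.76 ± 0.6901 at 24 h (SD, n = 4). ATF4 itself fell by 0.11 on the log2 scale. ASNS was at 0.523 ± 0.354 CPM at 6 h and 0.547 ± 0.426 at 24 h (SD, n = 4) and did not pass, and TRIB3 (-0.10) and ATF3 (0.024) did not pass either. Of 19 NRF2 target and ferroptosis genes, 7 fell and 2 rose, TFRC being one of those that rose. GCLM, the modifier subunit of the enzyme that limits glutathione synthesis, was at 119.7 to 133 CPM in the 4 libraries at 6 h and 77.1 to 84.1 in the 4 at 24 h (log2 fold change -0.62, SE 0.026, adjusted p = 9.11e-08), and its catalytic partner GCLC fell by 0.18. OSGIN1 fell 1.99-fold from a low level, NQO1 fell by 0.22 and TXNRD1 by 0.19, while GPX4 (0.075) and NFE2L2, the gene of NRF2 (-0.025), did not pass.

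**Figure D5:**
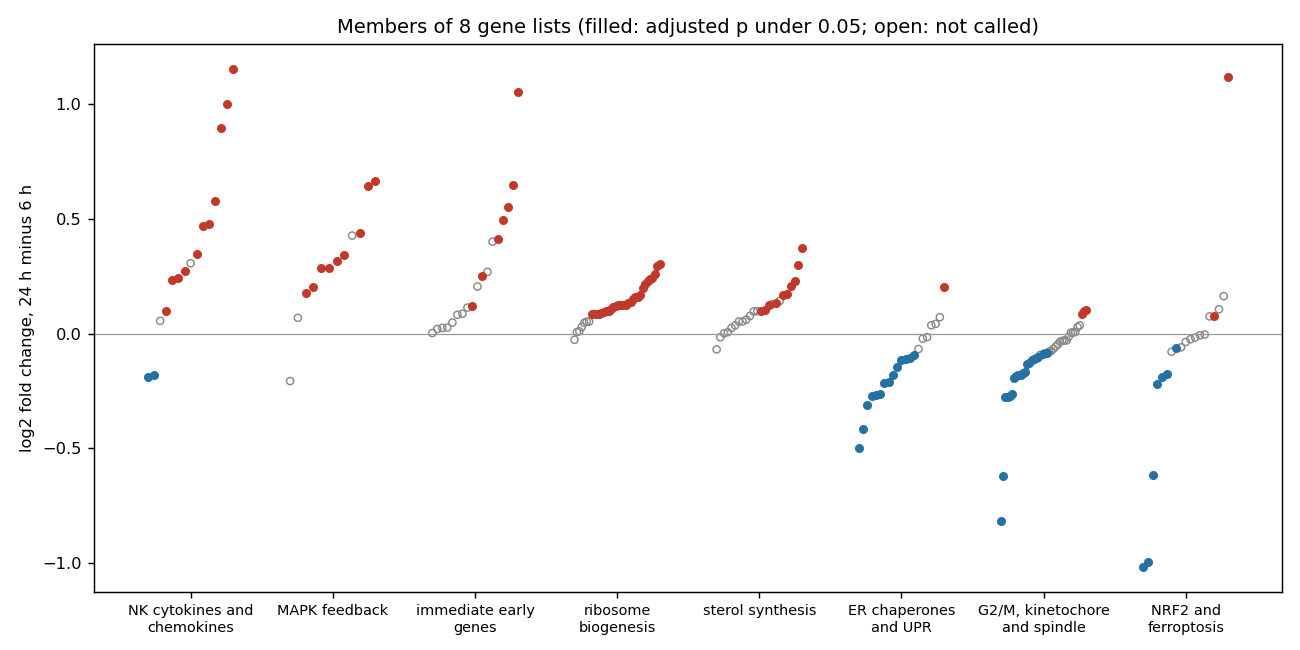
Log2 fold change from 6 h to 24 h over both agents of every tested member of 8 gene lists, sorted within each list; filled points passed the adjusted p of 0.05 (red higher, blue lower) and open points did not. Cytokines, MAP kinase feedback, immediate early and ribosome biogenesis genes lie mostly above 0, and chaperones of the endoplasmic reticulum and mitotic genes mostly below.

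Many mitotic genes fell, while most replication genes did not pass the test. Of 40 genes of G2/M, kinetochore and spindle, 20 fell (50%, against 7.97% of all genes) and 3 rose. Their median log2 change was -0.087, and 13 fell with both agents, against 2.60% of all genes. The 2 largest falls stood apart from the rest. CENPF, a kinetochore protein, was at 522 and 499 CPM in the DFO libraries and 489 and 492 in the T003 libraries at 6 h, and 299 and 280.1 with DFO and 273 and 282 with T003 at 24 h (log2 fold change -0.82, SE 0.025, adjusted p = 7.13e-09), and BUB1, a kinase of the spindle checkpoint, was at 275 to 292 CPM in the 4 libraries at 6 h and 170.2 to 193 in the 4 at 24 h (log2 fold change -0.62, SE 0.029, adjusted p = 1.95e-07). The other genes that fell did so by 0.28 or less on the log2 scale: KIF11 by 0.27, KIF20A by 0.28, TOP2A by 0.17, PRC1 by 0.18, HMMR by 0.18 and FOXM1, a transcription factor of the programme, by 0.13. MKI67 (-0.076, adjusted p = 0.0972), CDK1 (0.0038), CCNB1 (0.035), CDC20 (0.0040) and PLK1 (-0.032) did not pass. AURKB (0.10), MAD2L1 (0.099) and CDC25A (0.085) rose, but those calls rested on single libraries: the number of rises was 0 without T003 6 h replicate 1 or T003 24 h replicate 1, and 1 without DFO 6 h replicate 1 or T003 24 h replicate 2. Of 48 genes of DNA replication and nucleotide synthesis, 6 rose (12.5%) and 3 fell (6.25%). These shares are near the 9.96% and 7.97% of all tested genes. The 6 became 3 without T003 6 h replicate 1 or T003 24 h replicate 1. The polymerase subunit POLD1 rose by 0.14 and MCM2 by 0.097, PCNA fell by 0.078, and the ribonucleotide reductase genes RRM1 (-0.047) and RRM2 (0.022) did not pass. RRM2B, the form of that enzyme subunit under p53 control, fell by 0.19.

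Promoters of mitotic genes often pair an NF-Y box with the cell cycle homology region (CHR). TTTGAA, the letters of the CHR on either strand, was present in 22 of the 33 members with a RefSeq promoter window (66.7%), against 11.004% of all such windows, and CCAAT, the NF-Y box, in 27 of 33 (81.8%), against 36.5%. Of the 22 members with the CHR letters 13 fell, and of the 27 with the NF-Y box 13 fell. In the whole list 20 of 40 fell, and whether either motif goes with a fall was not tested. The 90 bases before the start are given for KIF11, PRC1 and HMMR, which fell, and for CCNB2 (-0.086) and PLK1 (-0.032), which did not pass, to show that the same arrangement stands before genes of both kinds. Both motifs are in capitals, on either strand; the source and orientation are as for the windows above.
KIF11 (chr10:92593040-92593129, plus strand): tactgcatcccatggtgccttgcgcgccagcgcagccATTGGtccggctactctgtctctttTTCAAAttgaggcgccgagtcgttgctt
PRC1 (chr15:90994536-90994625, minus strand): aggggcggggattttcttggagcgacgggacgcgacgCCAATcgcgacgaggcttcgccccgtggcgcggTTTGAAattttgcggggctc
HMMR (chr5:163460542-163460631, plus strand): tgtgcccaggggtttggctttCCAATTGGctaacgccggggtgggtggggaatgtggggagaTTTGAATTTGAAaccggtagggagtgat
CCNB2 (chr15:59105056-59105145, plus strand): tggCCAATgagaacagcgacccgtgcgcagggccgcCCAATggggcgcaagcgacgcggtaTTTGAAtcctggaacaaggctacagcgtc
PLK1 (chr16:23678799-23678888, plus strand): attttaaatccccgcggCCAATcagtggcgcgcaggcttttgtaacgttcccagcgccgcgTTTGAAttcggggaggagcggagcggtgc
In all 5, which were picked as examples, the NF-Y box precedes the CHR. Other members differ: in CDK1 the CHR letters begin at -161 and the NF-Y box at -150, in bases from the start. ANLN and BUB1B had the CHR letters and no NF-Y box in the window.

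Most of the remaining lists were mixed or near the background of 9.96% higher and 7.97% lower. Glycolysis (29.2% higher, 4.17% lower) and the respiratory chain (18.75% higher, 3.1% lower) leaned to rises. Of 24 glycolysis genes 7 rose and 1 fell. HK2, hexokinase 2, was at 157 to 163 CPM in the 4 libraries at 6 h and 203 to 207 in the 4 at 24 h (log2 fold change 0.37, SE 0.018, adjusted p = 2.65e-07), and the lactate transporter SLC16A1 rose by 0.23 on the log2 scale, whereas LDHA, at 1974 to 2021 CPM in the 4 libraries at 6 h and 1906 to 1979.6 in the 4 at 24 h, did not pass (log2 fold change -0.032, SE 0.018, adjusted p = 0.287). Of 29 targets and parts of the hypoxia pathway 5 rose and 4 fell (17.2% and 13.8%), with MXI1 up by 0.67 and the histone demethylase KDM7A down 1.63-fold. The iron-dependent hydroxylase gene EGLN1 (0.015) and the glucose transporter SLC2A1 (0.0082) did not pass. In the respiratory chain 6 of 32 rose and 1 fell, UQCRFS1 having the largest rise (0.11); 2 rose without DFO 6 h replicate 1, T003 6 h replicate 1, DFO 24 h replicate 2 or T003 24 h replicate 1, or with GC and length trends removed. Among p53 targets 3 of 23 rose (1 without replicate 1 of T003 at 6 h or at 24 h) and 3 fell, and MDM2 (-0.0096) did not pass. In the BCL2 family 4 of 17 rose (1 with GC and length trends removed) and 2 fell: BCL2 itself rose, with 115 to 118 CPM in the 4 libraries at 6 h and 130.1 to 148 in the 4 at 24 h, and BMF, which antagonises it, fell, with 140.5 to 144 CPM in the 4 libraries at 6 h and 103 to 121 in the 4 at 24 h. Of 18 cyclins, kinases and inhibitors of G1, 3 rose and 3 fell. Of 20 aminoacyl-tRNA synthetases 4 rose and 5 fell, AARS1 by 0.33; 3 fell without DFO 6 h replicate 1, T003 6 h replicate 2 or replicate 2 of either agent at 24 h. Interferon-stimulated genes were near the background, with 4 of 30 higher (2 when any one library other than DFO 6 h replicate 1 or T003 24 h replicate 2 was left out) and 2 lower, the largest being the fall of OASL from 45.9 ± 1.23 CPM at 6 h to 29.05 ± 2.14 at 24 h (SD, n = 4). Of 17 genes of antigen presentation 3 rose and 2 fell. In every list given here, a count of 1 or 2 genes moved by at most 1 when single libraries were left out.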

How the data were processed

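Polyadenylated RNA of NK-92 cells was sequenced in 10 libraries. The authors deposited unnormalized estimated counts, 1 row per gene symbol. Per the submitters' processing notes and the series' design text, these came from fastp 0.21.0 for trimming, HISAT2 2.2.1 for alignment (hg38) and StringTie 2.1.6 for counting over RefSeq genes. The values are whole numbers, so no rounding was needed. No source used here says how strand was handled. Overlap with another tested gene is not noted above for every gene. CEBPB overlaps CEBPB-AS1, DDIT3 overlaps MARS1, JUNB overlaps HOOK2, SREBF1 overlaps RAI1 and NOP16 overlaps ARL10, among others.

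Counts of the 8 libraries at 6 h and 24 h were fitted with edgeR 4.0.16 (R 4.3.3; glmQLFit, glmQLFTest, TMM scaling, filterByExpr with a minimum count of 10) with time and agent as terms, leaving 19802 genes and 5 residual degrees of freedom. Changes within an agent and the interaction came from 1 mean for each of the 4 groups. P-values were adjusted by Benjamini-Hochberg over all genes tested and called under 0.05. The standard error (SE) was taken as the size of the log2 fold change over the root of its F statistic. Totals of 107117892 to 135534058 counts put a count of 3 at 0.0221 to 0.0280 CPM, which covers counting error only. The procedure was tested on simulated data.

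Named genes were the 15 largest rises and falls among genes called over both agents and within each, whose mean log2 CPM was 2 or more, without overlap between times; a panel of 19 genes; the 3 members with the lowest p in every list; and genes called for the interaction, up to 4 in each direction. Some genes, 1 of those called for the interaction among them, are not reported here. Other list members were picked as examples after their values were seen. The members, the panel and the 38 lists (6 of them cell type markers) were chosen with earlier results of these data known, and 2 lists, of SMAD signalling and of the circadian clock, were added after seeing the data. Promoter windows came from RefSeq (GRCh38.p14), and 12432 of the 19802 tested genes had one. Further motifs were searched in other lists, and no member with a match was called. The sterol regulatory element TCACNCCAC was in 1 of 18 windows of sterol genes (5.56%, against 1.13% of all). The SMAD palindrome GTCTAGAC was in 1 of 24 windows of SMAD signalling (4.17%, against 0.257%). The cAMP response element TGACGTCA was in 1 of 16 windows of immediate early genes (6.25%, against 3.01%). The alternatives were RLE scaling, other filters, DESeq2 1.42.0, limma-voom (limma 3.58.1), the replicate number as a block, other model terms, all 10 libraries in the fit, each library left out in turn and, added after seeing the data, removal of GC and length trends.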

Additional observations from a re-analysis of the deposited data

Results flagged for a closer look

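For HMGCS1 and HSPA5 the change from 6 h to 24 h with T003 differed from that with DFO by the test of the interaction (edgeR, adjusted over 19802 genes). HMGCS1 had the larger rise with T003, the difference being 0.46 on the log2 scale (SE 0.038, adjusted p = 0.006399). HSPA5 had the deeper fall with T003, the difference being -0.32 (SE 0.030, adjusted p = 0.0103). Groups of 2 libraries were too small to search for single outlying samples.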

How the results depend on the processing

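Of 2566 values of the 143 named genes under alternative settings, 2518 kept their direction and side of the threshold, 42 lost the call, 6 gained it and none changed direction. Genes outside that rule that changed sign were PMVK (-0.063), GZMM (-0.012) and JUND (-0.13), all with GC and length trends removed, a setting that covered 16752 genes (84.6%); those trends took 18.7% of the deviation of DFO 6 h replicate 1 and 0.413% to 9.16% in the other libraries. The share of called genes that were higher was 49.5% with the trends removed and 55.5% as reported. The count over both agents ran from 2465 to 3179 when single libraries were left out, and 2392 to 2893 of the genes were shared with the reported 3551. Leaving out single libraries gave 930 to 1618 genes within DFO, 1177 to 2611 within T003, 722 to 1059 shared and 0 to 7 for the interaction; a group then had 1 library, assumed to vary like the others. The counts within an agent fell by over 1.5 times without any one of the 4 T003 libraries (1177, 1467, 1294 and 1508 for T003), and without DFO 6 h replicate 1, DFO 24 h replicate 1 or DFO 24 h replicate 2 (930, 1093 and 951 for DFO). The shared count was 769, 722, 816, 754 and 782 without DFO 6 h replicate 1, T003 6 h replicate 1, DFO 24 h replicate 1, DFO 24 h replicate 2 and T003 24 h replicate 1. The interaction called 10 genes with no filter, 8 with a filter of 1 CPM, 163 with DESeq2, 12 with limma-voom and 19 with GC and length trends removed; the cause was not tested. With the replicate number as a block, 3274 genes were called over both agents, 1651 within DFO and 2303 within T003. In that setting 1124 were called the same way in both and 2 for the interaction. Deviations of same-numbered libraries correlated at -0.13 to 0.32 over 6 pairs of groups, in genes whose mean log2 CPM was 2 or more. The numbers were therefore not taken to pair the libraries. Genes under 1 CPM, such as TNF and ASNS, rest on few counts, and 2 libraries a group limit the tests within an agent.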

Other observations

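Genes outside the lists were looked up after their values had been seen. TSC22D3, or GILZ, a glucocorticoid-induced leucine zipper gene, was at 4.11 and 5.18 CPM in the DFO libraries and 4.35 and 4.45 in the T003 libraries at 6 h, and 1.2 and 1.21 with DFO and 1.55 and 1.48 with T003 at 24 h, a 3.33-fold fall (log2 fold change -1.73, SE 0.11, adjusted p = 2.28e-06), without overlap between the times. FKBP5, another gene induced by glucocorticoids, did not pass (-0.054, adjusted p = 0.0502). The very large cytoskeletal linkers AHNAK and PLEC fell by 0.79 and 0.71 on the log2 scale, and SELPLG, the P-selectin ligand of leukocytes, fell from 109 ± 4.49 CPM at 6 h to 65.5 ± 5.52 at 24 h (SD, n = 4). IRF8, a transcription factor of lymphoid and myeloid cells, rose with both agents, with 82.3 and 81.97 CPM in the DFO libraries and 85.3 and 87.5 in the T003 libraries at 6 h, and 128 and 132 with DFO and 128 and 124 with T003 at 24 h (log2 fold change 0.61, SE 0.027, adjusted p = 1.16e-07). MYB, a factor of immature blood cells, rose by 0.52, and ITGAX, the CD11c integrin chain, rose 1.75-fold from 2.71 ± 0.4097 CPM at 6 h to 4.78 ± 0.797 at 24 h (SD, n = 4).

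Genes of the circadian clock moved unequally, in a list added after the data were seen and so without a test. Of 15 tested members 6 rose (40%) and 1 fell (6.67%), against 9.96% and 7.97% of all tested genes. With both agents 4 rose and 1 fell, against 3.69% and 2.60% of all tested genes. PER1 was at 6.59 and 8.44 CPM in the DFO libraries and 7.65 and 7.67 in the T003 libraries at 6 h, and 10.5 and 10.2 with DFO and 13.6 and 11.96 with T003 at 24 h (log2 fold change 0.61, SE 0.090, adjusted p = 8.31e-04), PER2 at 108 to 116 CPM in the 4 libraries at 6 h and 134 to 145 in the 4 at 24 h and NR1D1, which overlaps THRA, at 13.5 to 14.8 CPM in the 4 libraries at 6 h and 19.1 to 22.7 in the 4 at 24 h. The untreated libraries, at 120.3 and 109 CPM for PER2 and 15.9 and 13.5 CPM for NR1D1, lay near those at 6 h. BHLHE40, a repressor in the same loop, fell by 0.32 on the log2 scale. The core activators CLOCK (-0.051) and ARNTL (-0.10), the repressor CRY1 (0.074) and NR1D2 (-0.038) did not pass. The clock times of collection are not given in the sources used here.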
